A study of Mus musculus with 4 samples.

Results

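The genes of the core Ras, Raf and MAP kinase cascade were compared between Met-low and Met-high cells of the mouse melanoma line B16-F10. The 7 genes *Braf*, *Araf*, *Nras*, *Hras*, *Map2k1*, *Map2k2* and *Mapk3* were taken by symbol, and every probe whose accession mapped to one of them in the mouse RefSeq table was kept. This gave 15 of the 39429 probes on the array, for 7 of 20832 genes named through RefSeq. B16-F10 cells had been sorted by the amount of Met, the receptor of hepatocyte growth factor, on the cell surface. The sorted Met-low and Met-high cells were each cultured for 3 days in RPMI medium with fetal bovine serum, and the labels name no added ligand or drug. From each population, 2 RNA samples were prepared independently, and each was measured on its own 1-colour Agilent array (Cy3). Both populations come from a single cell line, so the replicates are preparations of that line and not separate tumors or animals, and p-values measure only the spread between these preparations.

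Ras proteins are small GTPases that switch between a resting, GDP-bound and an active, GTP-bound state at the inner face of the plasma membrane. Active Ras recruits Raf kinases, which phosphorylate the kinases MEK1 (*Map2k1*) and MEK2 (*Map2k2*), which in turn phosphorylate the MAP kinases ERK1 (*Mapk3*) and ERK2. The pathway lies downstream of receptor tyrosine kinases such as Met and Kit, and is the pathway most often activated by mutation in human melanoma. Its output is set largely by phosphorylation and GTP loading, which an array of RNA does not measure. In RNA of a whole culture, a change in every cell and a change in the share of cells of one kind cannot be told apart.

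Probe signals are given as log2 of the background-corrected intensity relative to the 75th percentile of the array, and a log2 ratio is the Met-high mean minus the Met-low mean of that value. The level of one probe cannot be set against the level of another, since probes differ in brightness. On the 4 arrays the 75th percentile lay between 858 and 1331 intensity units, 50.01% to 53.63% of spots were well above background, and 0 spots were saturated. In the order of the samples, the Met-low arrays are 1 and 2 and the Met-high arrays 3 and 4. If that is also their order on a slide, slide position cannot be told apart from population. All 8 melanocyte lineage markers were well above background on all 4 arrays, with *Tyr*, *Dct*, *Pmel* and *Sox10* among them, and 0 of the 8 passed an adjusted p under 0.05. Of the fibroblast, leukocyte and endothelial markers, *Pdgfra*, *Dcn*, *Lum*, *Thy1*, *Ptprc*, *Cd79a*, *Cdh5* and *Tek* were well above background on 0 arrays, while *Cd3e*, *Itgam*, *Kdr* and *Vwf* were on all 4 and *Pecam1* on 3. *Col1a1* and *Adgre1* were well above background on 1 array each. Of the keratinocyte markers, *Trp63* was well above background on 4 arrays, *Krt14* on 3, *Krt5* on 2, *Krt10* on 1 and *Cdh1* on 0. *Col1a2*, a collagen gene of the fibroblast list, was detected on all 4 arrays and lower in Met-high cells (log2 ratio -1.10, adjusted p of 0.031 in limma). Of the 6 fibroblast markers, only *Col1a2* was well above background on all 4 arrays. Their summed signal was 0.64 to 0.68 times the 75th percentile in Met-low and 0.31 to 0.32 times in Met-high cells. The sum of the 5 endothelial markers went the other way, from 5.61 to 6.42 in Met-low to 6.89 to 8.59 in Met-high cells. The sums of the melanocyte, leukocyte and keratinocyte markers overlapped between the populations. The part of these sums in the results below was not tested. *Met* RNA was at -0.26 and -0.89 in Met-low and at 1.03 and -0.43 in Met-high cells, so that Met-high replicate 2 lay between the Met-low arrays.

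For 14 of the 15 probes, the signal was well above background on all 4 arrays, and these 14 were tested together with all other probes that passed the same filter, 19796 in all. The exception was the second *Hras* probe, A_55_P1979536, which was not well above background on any array and has no ratio here. None of the 14 probes passed an adjusted p under 0.05 in limma (0 of 14, adjusted p from 0.16 to 0.95), beside 2.63% of all probes tested. At an unadjusted p under 0.05 there were 3 of 14, beside 22.5% of all probes. All 14 ratios were under 2-fold, from -0.62 to 0.58 on the log2 scale, while 7.97% of all probes tested differed by more than 2-fold. The 95% interval of the ratio lay within 2-fold in either direction for 12 of the 14 probes, as it did for 64.1% of all probes, the exceptions being *Hras* A_51_P357664 and *Braf* A_55_P2170787.

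Within these small differences the members did not lie on one side. The mean was higher in Met-high cells for 7 probes, of *Hras*, *Map2k1*, *Map2k2*, *Mapk3* and 1 of *Araf*, and higher in Met-low cells for 7 probes, of *Braf*, *Nras* and the other two of *Araf*. The populations did not overlap, with Met-high on top, for 6 of 14 probes, a pattern found in 32.4% of all probes. With Met-low on top this was also 6 of 14, beside 23.0% of all probes. The median log2 ratio was -0.05 over the 14 probes and 0.07 over all probes tested. Taking the 75th percentile over detected probes alone moved the median of all probes from 0.07 to -0.07, and each member moved with it, so the distance of each member from that median is given below where its size matters.

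**Figure D1:**
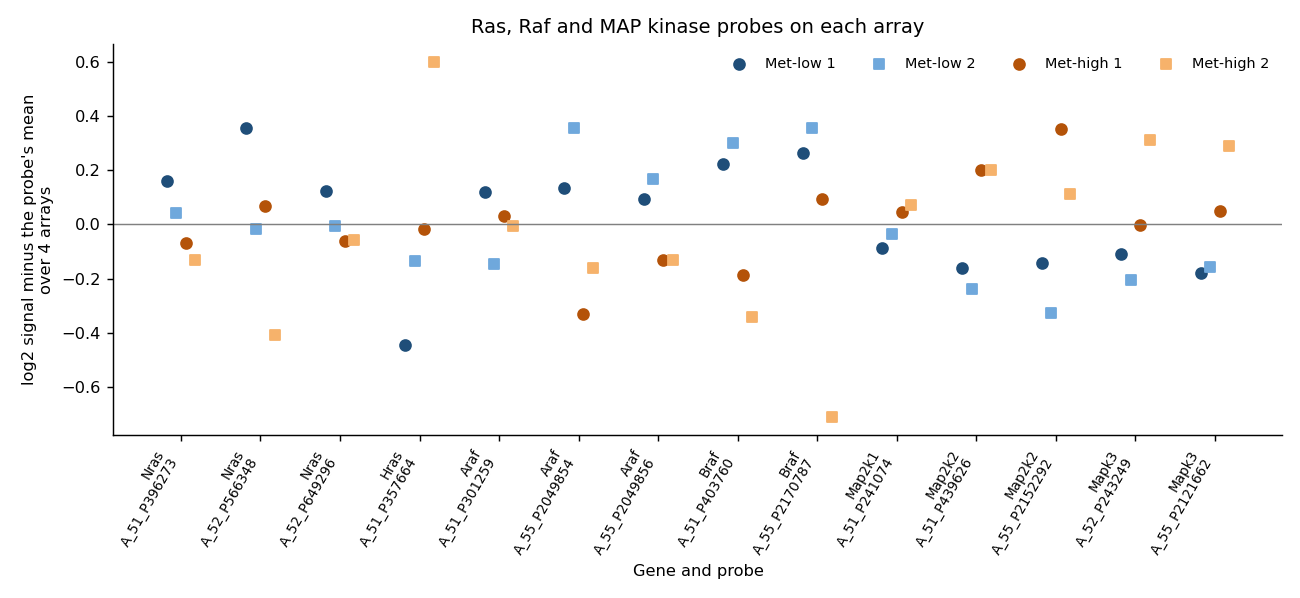
Log2 signal of the 14 probes of the Ras, Raf and MAP kinase genes on each of the 4 arrays, as the distance from the mean of that probe over the arrays. Both Met-high arrays lie above both Met-low arrays for *Hras*, *Map2k1*, *Map2k2* and *Mapk3* and below them for *Braf*, and the spread between arrays of one population is widest for *Hras* A_51_P357664 and *Braf* A_55_P2170787.

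The RefSeq promoter table (GRCm38.p6) holds *Braf*, *Araf*, *Nras*, *Hras*, *Map2k1* and *Map2k2*, 6 of the 7 members. The 250 bases before the start are shown for 4 members. They are a gene with a lower mean in Met-high cells from each of the Ras and Raf steps, and the members with the highest ratios. None of the ratios used for this choice passed the adjusted p, and a link between the letters and a direction was not tested. Capitals mark the GC box GGGCGG, searched on both strands, and the cyclic AMP response element TGACGTCA, which is its own reverse complement.
Nras, chr3:103058035-103058284, + strand: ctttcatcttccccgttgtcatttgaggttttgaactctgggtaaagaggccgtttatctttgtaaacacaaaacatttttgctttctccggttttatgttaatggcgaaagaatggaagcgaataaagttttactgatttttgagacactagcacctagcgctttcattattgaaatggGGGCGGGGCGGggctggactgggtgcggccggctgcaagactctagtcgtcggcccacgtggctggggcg
Braf, chr6:39725464-39725713, - strand: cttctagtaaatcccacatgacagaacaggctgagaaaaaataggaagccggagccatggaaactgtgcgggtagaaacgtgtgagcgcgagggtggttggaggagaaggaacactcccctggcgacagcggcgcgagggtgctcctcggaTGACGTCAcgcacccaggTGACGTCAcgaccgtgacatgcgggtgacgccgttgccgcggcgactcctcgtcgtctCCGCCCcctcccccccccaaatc
Hras, chr7:141194005-141194254, - strand: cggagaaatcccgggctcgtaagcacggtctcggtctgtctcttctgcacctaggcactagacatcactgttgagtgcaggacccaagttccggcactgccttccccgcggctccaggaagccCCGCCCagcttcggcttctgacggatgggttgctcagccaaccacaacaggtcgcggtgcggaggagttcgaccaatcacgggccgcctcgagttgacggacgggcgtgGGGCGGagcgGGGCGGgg
Map2k2, chr10:81105665-81105914, + strand: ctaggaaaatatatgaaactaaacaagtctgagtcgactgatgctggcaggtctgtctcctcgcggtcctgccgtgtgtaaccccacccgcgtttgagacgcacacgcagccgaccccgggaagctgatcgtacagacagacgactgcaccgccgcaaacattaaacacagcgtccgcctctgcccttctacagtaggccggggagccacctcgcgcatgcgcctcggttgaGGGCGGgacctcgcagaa

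The *Braf* window holds 2 matches of TGACGTCA, a word found in 1.55% of 32851 promoter windows of the same length, and the windows of the other five members hold none. GC boxes were matched 3 times in *Hras*, 4 times in *Map2k1*, 2 times in *Nras*, where the matches overlap, once in *Braf* and *Map2k2* and not in *Araf*, and 32.7% of all windows hold at least 1. All 6 windows lack TATAAA, which 12.4% of all windows hold on either strand. The share of G and C was 65.6% for *Hras*, 59.6% for *Map2k2*, 62.0% for *Braf* and 48.4% for *Nras*, beside a median of 52.4% over all windows. These matches describe the letters of the windows and say nothing of factor binding in B16-F10 cells.

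Of the Ras genes, *Nras* encodes a GTPase that is a frequent site of activating mutations in human melanoma. Probe A_51_P396273 was at 0.85 and 0.74 in Met-low and at 0.63 and 0.56 in Met-high cells. Probe A_52_P649296 was at 0.67 and 0.54 in Met-low and at 0.48 and 0.49 in Met-high cells. For both probes the Met-low arrays were the higher ones without overlap. Probe A_52_P566348 was at 1.16 and 0.79 in Met-low and at 0.87 and 0.40 in Met-high cells, with overlap between Met-low replicate 2 and Met-high replicate 1. The log2 ratios of the 3 probes were -0.20, -0.12 and -0.34, with 95% intervals from -0.61 to 0.20, from -0.52 to 0.29 and from -0.99 to 0.31, and adjusted p-values of 0.49, 0.69 and 0.47 in limma. The mean was lower in Met-high cells for all 3 probes, but each interval includes 0 and stays within 2-fold. Leaving out one array moved A_52_P566348 to between -0.58 (without Met-high replicate 1) and -0.10 (without Met-high replicate 2), and A_52_P649296 to -0.05 without Met-low replicate 1.

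*Hras* encodes the closely related GTPase H-Ras. Its probe A_51_P357664 had intensities of 9718 and 17010 in Met-low and of 11909 and 23633 in Met-high cells. Relative to the 75th percentile these were 3.37 and 3.68 in Met-low and 3.79 and 4.41 in Met-high cells. The populations did not overlap, but Met-low replicate 2 and Met-high replicate 1 lay close together and Met-high replicate 2 stood well above the rest. The log2 ratio of 0.58 (standard error 0.27, 95% interval from -0.13 to 1.29) was the highest of all members, a 1.5-fold difference with an adjusted p of 0.29. Without Met-high replicate 2 the ratio was 0.27, and without Met-high replicate 1 it was 0.89, so the size rests on which array is used. The dim second probe had intensities of 9.28 and 21.0 in Met-low and of 11.52 and 7.503 in Met-high cells. It is designed to another *Hras* transcript accession, NM_001130444.

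Differences between related genes within an array do not depend on how the arrays are scaled to each other by a constant. The log2 difference of *Hras* minus *Nras* was higher on both Met-high arrays than on both Met-low arrays with each of the 3 *Nras* probes. The difference was 2.51 and 2.94 in Met-low and 3.17 and 3.85 in Met-high cells with A_51_P396273. Between the means of the populations it was higher in Met-high cells by 0.70, 0.78 and 0.92 with the 3 probes, that is 1.62-fold, 1.72-fold and 1.89-fold. With A_52_P566348, Met-low replicate 2 at 2.89 and Met-high replicate 1 at 2.92 nearly met. The 3 pairs share the same *Hras* probe, and how often other pairs of probes separate the populations was not counted. These differences are a description and were not tested.

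Of the Raf kinases, *Braf* encodes the family member most often mutated in melanoma and the target of inhibitors such as vemurafenib. Its brighter probe, A_51_P403760, had intensities of 1508 and 2247 in Met-low and of 1035 and 1204 in Met-high cells. Relative to the 75th percentile it was at 0.68 and 0.76 in Met-low and at 0.27 and 0.12 in Met-high cells. The populations did not overlap, and the gap between the populations was larger than the spread within either. The log2 ratio was -0.52 (standard error 0.16, 95% interval from -0.94 to -0.11), which is 1.44-fold in favour of Met-low cells. It had an unadjusted p of 0.024 and an adjusted p of 0.16 in limma, the smallest of all members. It lay 0.60 below the median of all probes on the log2 scale.

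The second *Braf* probe, A_55_P2170787, was dimmer, with intensities between 82.2 and 206. It was at -2.78 and -2.69 in Met-low and at -2.95 and -3.76 in Met-high cells. The Met-low arrays were again the higher ones, while the Met-high arrays were far apart. The ratio of -0.62 had a standard error of 0.30 and an adjusted p of 0.31, and became -0.21 without Met-high replicate 2 and -1.02 without Met-high replicate 1. Both probes thus had the same direction, but the size from the dimmer one depended on a single array. Among the 11958 genes tested by gene, *Tcp11l1*, *Zbtb11* and *Zbtb7a* came closest to this probe over the 4 arrays, with root mean square distances of 0.066, 0.079 and 0.089 on the log2 scale after each was centred on its own mean. Over 4 arrays such a likeness is weak, and nothing else is drawn from it.

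*Araf* encodes A-Raf, which has low kinase activity of its own and forms dimers with the other Raf proteins. Its 3 probes did not give one answer. The brightest, A_51_P301259 (NM_009703), was at 3.57 and 3.31 in Met-low and at 3.48 and 3.45 in Met-high cells, so that both Met-high arrays lay between the Met-low arrays. The ratio of 0.02 (95% interval from -0.43 to 0.48) turned to -0.13 with quantile normalization and -0.12 when only detected probes set the percentile. The probes for NM_001159645 were lower in Met-high cells without overlap. A_55_P2049856 was at 0.70 and 0.78 in Met-low and at 0.48 on both Met-high arrays, giving -0.26 (adjusted p of 0.37). The dim probe A_55_P2049854 was at -3.29 and -3.07 in Met-low and at -3.75 and -3.58 in Met-high cells, giving a ratio of -0.49 (unadjusted p of 0.041, adjusted p of 0.20). Its ratio was -0.26 with a normexp background correction. Which transcripts each probe detects was not tested.

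Set against each other within an array, *Braf* and *Araf* gave a difference that depended on the *Araf* probe. Against the brightest *Araf* probe, the log2 difference of *Braf* A_51_P403760 was -2.90 and -2.56 in Met-low and -3.22 and -3.33 in Met-high cells, a change of -0.55 without overlap. Against A_55_P2049854 the change was -0.03, with overlap. Over the 6 pairs of probes, all changes were below 0, between -0.64 and -0.03, and 3 of the 6 did not overlap. The pairs share probes, and how often other pairs of probes separate the populations was not counted. Of single probes, 32.4% did so with Met-high on top and 23.0% with Met-low on top.

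**Figure D2:**
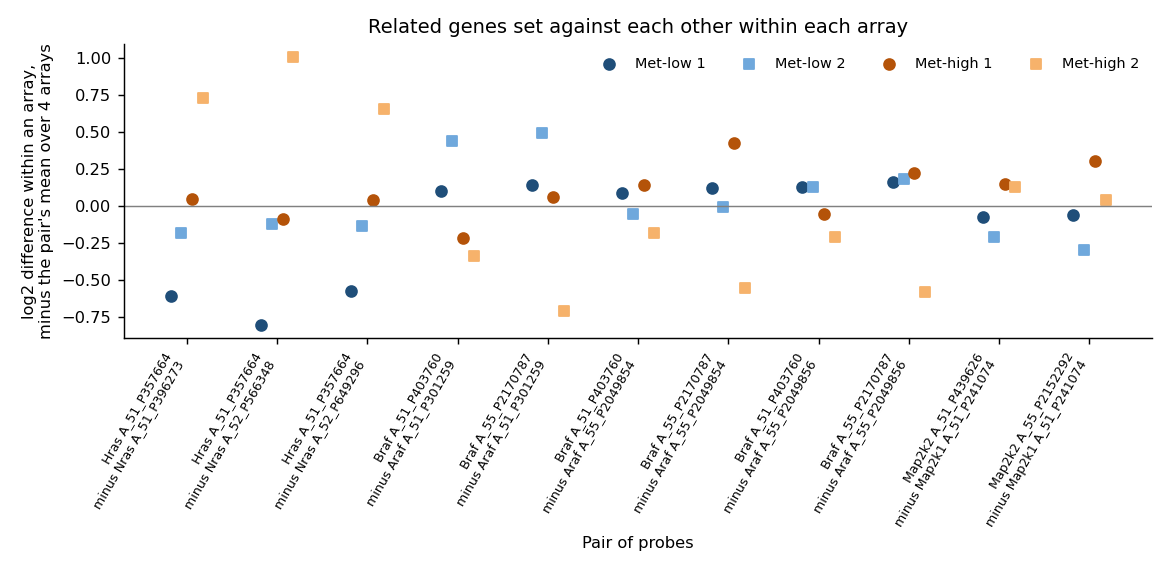
Log2 difference between the probes of 2 related genes within each array, as the distance from the mean of that pair over the 4 arrays, for 11 pairs of probes. *Hras* minus *Nras* and *Map2k2* minus *Map2k1* lie higher on the Met-high arrays for each pair, while *Braf* minus *Araf* lies lower without overlap in 3 of 6 pairs. Pairs of the same genes share probes, and how often other pairs of probes separate the populations was not counted.

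The MEK kinases *Map2k1* and *Map2k2* phosphorylate both ERK proteins and are targets of inhibitors used with BRAF inhibitors in melanoma. *Map2k2* was measured by a pair of probes for the same accession, NM_023138. Probe A_51_P439626 was at 2.99 and 2.91 in Met-low and at 3.35 on both Met-high arrays. Probe A_55_P2152292 was at 2.85 and 2.66 in Met-low and at 3.34 and 3.102 in Met-high cells. For both probes the Met-high arrays were the higher ones without overlap. The log2 ratios were 0.40 (95% interval from 0.0029 to 0.80) and 0.47 (95% interval from -0.0015 to 0.94), which is 1.32-fold and 1.38-fold, with adjusted p-values of 0.22 and 0.22 in limma. Both probes lay above the median of all probes, by 0.33 and 0.40 on the log2 scale. Leaving out one array at a time, the ratios stayed between 0.36 and 0.44 and between 0.35 and 0.59.

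*Map2k1* was measured by 1 probe. This probe, A_51_P241074, was at 2.94 and 3.00 in Met-low and at 3.08 and 3.103 in Met-high cells. The Met-high arrays were higher without overlap, but by a log2 ratio of only 0.12 (95% interval from -0.27 to 0.51, adjusted p of 0.67), and the sign turned with quantile normalization (-0.03) and when only detected probes set the percentile (-0.025). Within an array, *Map2k2* minus *Map2k1* was higher on both Met-high arrays with either *Map2k2* probe, with a change between the means of 0.28 and 0.35. With A_51_P439626 that difference was 0.05 and -0.08 in Met-low and 0.27 and 0.25 in Met-high cells. Both pairs share the same *Map2k1* probe, and how often other pairs of probes separate the populations was not counted. These differences too are a description and were not tested.

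*Mapk3* encodes ERK1, a MAP kinase that carries the signal to cytoplasmic and nuclear substrates. Probe A_52_P243249 was at 2.93 and 2.83 in Met-low and at 3.03 and 3.34 in Met-high cells. Probe A_55_P2121662 was at 1.41 and 1.43 in Met-low and at 1.64 and 1.88 in Met-high cells. The Met-high arrays were the higher ones for both probes, with Met-high replicate 2 above replicate 1. The log2 ratios were 0.31 and 0.34, which is 1.24-fold and 1.26-fold, with 95% intervals from -0.17 to 0.79 and from -0.10 to 0.78 and adjusted p-values of 0.38 and 0.32. Without Met-high replicate 2 the ratios were 0.15 and 0.22.

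**Figure D3:**
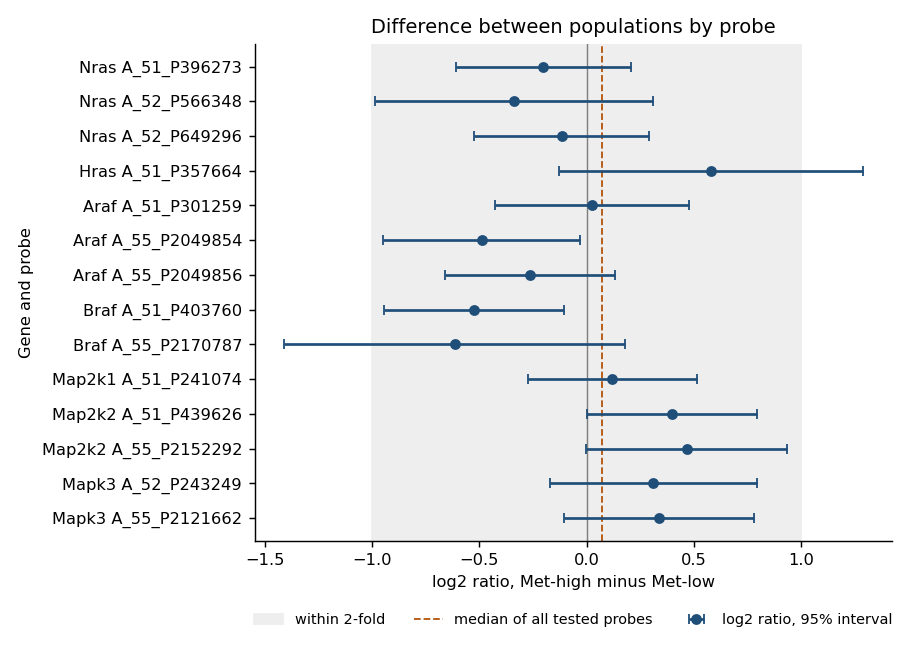
Log2 ratio (Met-high minus Met-low) of each of the 14 probes with its 95% interval from limma, beside 0, the median of all 19796 probes tested (dashed) and the range within 2-fold (grey). The intervals of 12 probes stay within 2-fold, and 0 of the 14 probes passed the adjusted p.

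For *Braf*, *Nras*, *Hras*, *Map2k2*, *Mapk3* and the probes of *Araf* for NM_001159645, the direction of the ratio was the same under each of the 4 other ways of processing that could move a ratio (normexp background, quantile normalization, the percentile of detected probes and the authors' values) and when any one array was omitted. The other 5 ways, among them the filters on dim probes, left each member's ratio as it was. Only *Map2k1* and the brightest *Araf* probe changed sign. In none of these settings did a member pass an adjusted p under 0.05, the smallest being 0.12 for *Braf* A_51_P403760 with the percentile of detected probes.

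**Figure D4:**
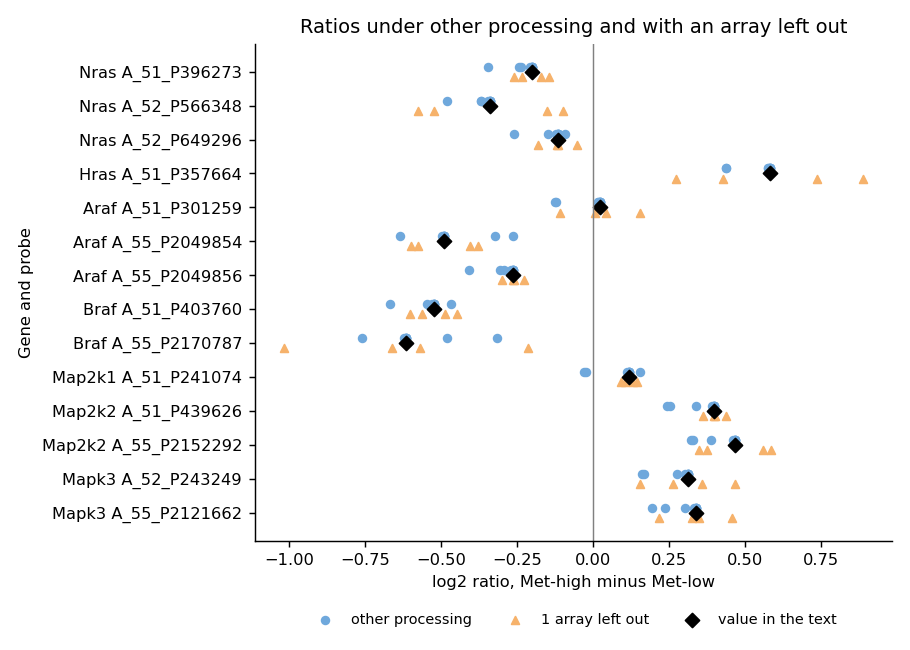
Log2 ratio (Met-high minus Met-low) of each probe as given in the text (diamonds), under 9 other ways to process the arrays (circles, 5 of which leave the ratio as it is) and when any one array is omitted (triangles). The sign changes only for *Araf* A_51_P301259 and *Map2k1*, and leaving out an array moves *Hras* and *Braf* A_55_P2170787 the most.

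Other genes of the pathway were counted from lists that follow the signal from the receptor to the feedback genes, 134 genes in all, each represented by its brightest probe. Of these, 131 were on the array and 107 passed the filter. At an adjusted p under 0.05 in limma, 4 of 107 were higher in Met-high cells and 2 of 107 in Met-low cells, beside 1.95% and 3.82% of all 11958 genes tested. The 4 include *Dusp9*, which passed the filter only through Met-high cells, and among genes detected on all 4 arrays 3 of 104 were higher in Met-high cells and 2 in Met-low cells. Adjusted over all probes, as for the members, *Rasal3* (0.051), *Rap2a* (0.060) and *Mapk12* (0.076) did not pass. Without a filter on dim probes, none of the 6 passed, with adjusted p-values from 0.075 for *Dusp9* to 0.19 for *Mapk12*. At an unadjusted p under 0.05 in limma there were 21 of 107 genes. The share over all genes was not counted, and that over all probes, from a separate fit, was 22.5%. The mean was on the Met-high side for 74 of the 107 (69.2%), beside 59.5% of all genes. When only detected probes set the percentile, it was on that side for 54 of the 107 (50.5%), beside 45.3% of all genes. Over all genes, 233 passed as higher in Met-high cells and 457 as lower, and these became 143 and 596 under the same scaling. The median log2 ratio was 0.15 for the 107 genes and 0.10 for all genes, and under that scaling 0.002 and -0.05.

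Upstream of Ras, a single gene passed. The exchange factors, which load Ras with GTP, had 5 genes past the filter and 0 past the adjusted p, 1 of them at an unadjusted p under 0.05. The largest difference in this list was that of *Sos2*, with a log2 ratio of -0.52 (adjusted p of 0.18). Of 7 GTPase-activating proteins, which return Ras to its resting state, 1 passed. It was *Rasal3*, which was at -0.42 and -0.62 in Met-low and at 0.71 and 0.54 in Met-high cells. Its log2 ratio was 1.15 (standard error 0.17) with an adjusted p of 0.028, which became 0.064 without Met-low replicate 2. *Nf1*, the gene of neurofibromin, had a ratio of -0.02 (95% interval from -0.46 to 0.42). Of the 8 genes for adaptors and a phosphatase upstream of Ras, 0 passed and 2 had an unadjusted p under 0.05. *Gab3* had the largest difference there, at -1.52 on the log2 scale with a standard error of 0.49 and an adjusted p of 0.14, and passed without Met-low replicate 1 (0.0024). With Met-low replicate 2 omitted, the ratio was -0.76.

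Among 13 other GTPases of the Ras family, 1 passed, *Rap2a*. It was at 2.38 and 2.24 in Met-low and at 1.28 and 1.37 in Met-high cells (log2 ratio -0.98, adjusted p of 0.034), but leaving out any one array gave an adjusted p between 0.058 and 0.11. Of the 8 genes for the lipid modification and membrane targeting of Ras proteins, 0 passed, 0 had an unadjusted p under 0.05, and all ratios lay between -0.26 and 0.18, with *Fnta*, a subunit of farnesyltransferase, at the lower end. Of 15 scaffolds and modulators of Raf, MEK and ERK, 0 passed and 0 had an unadjusted p under 0.05. Their ratios lay between -0.36 for *Ywhaz* and 0.36 for *Cnksr3*, with 0.28 for the scaffold *Ksr1*. *Ywhaz*, a 14-3-3 protein that binds Raf, had a ratio above 0 without Met-low replicate 1 (0.17) and without Met-high replicate 2 (0.38).

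Of 10 MAP3 kinases, 0 passed and 1 had an unadjusted p under 0.05. *Map3k14* had the largest ratio there, 0.73 (adjusted p of 0.31), but only 0.14 (adjusted p of 0.84) when Met-high replicate 2 was omitted, and with the mean of its probes 0.22. It passed without Met-high replicate 1 alone, at 1.32 (adjusted p of 0.024). The mean of all 5 other MAP2 kinases was on the Met-high side, beside 59.5% of all genes. Their median ratio was 0.39 and 0 passed the adjusted p. When only detected probes set the percentile, 4 of the 5 stayed on that side, beside 45.3% of all genes. *Map2k5*, the kinase upstream of ERK5, had the largest ratio, 0.67 (95% interval from 0.19 to 1.15, adjusted p of 0.11).

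The largest changes among the kinases were in the p38 branch, whose members answer to stress and cytokines. *Mapk13* (p38 delta) was at -0.60 and -0.72 in Met-low and at -3.16 and -2.56 in Met-high cells, which is 4.59-fold higher in Met-low cells (log2 ratio -2.20, standard error 0.24, adjusted p of 0.014 in limma). *Mapk12* (p38 gamma) changed in the opposite direction, from 0.49 and 0.82 in Met-low to 1.63 and 1.92 in Met-high cells, 2.18-fold higher in Met-high cells (log2 ratio 1.12, adjusted p of 0.044). The call of *Mapk12* was lost when Met-low replicate 1 (0.11) or Met-high replicate 2 (0.086) was omitted, with quantile normalization (0.054) and with the percentile of detected probes (0.054). The other 6 MAP kinases past the filter were not called. Among them *Mapk14* (p38 alpha) had a ratio of 0.37 (adjusted p of 0.36) and *Mapk11* (p38 beta) 0.71 (adjusted p of 0.067).

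Downstream of ERK, 0 of 13 substrates passed and 3 had an unadjusted p under 0.05. The mean was on the Met-high side for 11 of 13, beside 59.5% of all genes. When only detected probes set the percentile, it was on that side for 9 of 13, beside 45.3% of all genes. *Rps6ka1*, the gene of the ERK-activated kinase RSK1, had the largest ratio, 0.69 (95% interval from 0.22 to 1.15, adjusted p of 0.098). Of 15 genes of ERK feedback past the filter, *Etv4* and *Dusp9* passed the adjusted p. *Etv4*, an Ets factor gene induced by ERK signalling, was at 0.91 and 1.03 in Met-low and at 2.61 and 2.70 in Met-high cells, 3.20-fold higher (adjusted p of 0.0099), and its second probe gave a log2 ratio of 1.72. *Dusp9*, a phosphatase of ERK, entered the test only through its detection in Met-high cells. It stayed near background on both Met-low arrays (well above it on 0 of them). As processed here, it was at least 1.91-fold higher in Met-high cells. That bound sets the Met-high mean against the dimmest detected probe of each Met-low array, and holds for this processing alone. The adjusted p of 0.0066 in limma belongs not to the bound but to the calculated log2 ratio of 2.97. That ratio rests on Met-low values not well above background. With a normexp background correction it was 0.81, a smaller difference than the bound. The other 13 feedback genes did not pass and had ratios from -0.51 for *Dusp1* and -0.35 for *Spry1* to 0.58 for *Dusp6* and 0.63 for *Etv5*.

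**Figure D5:**
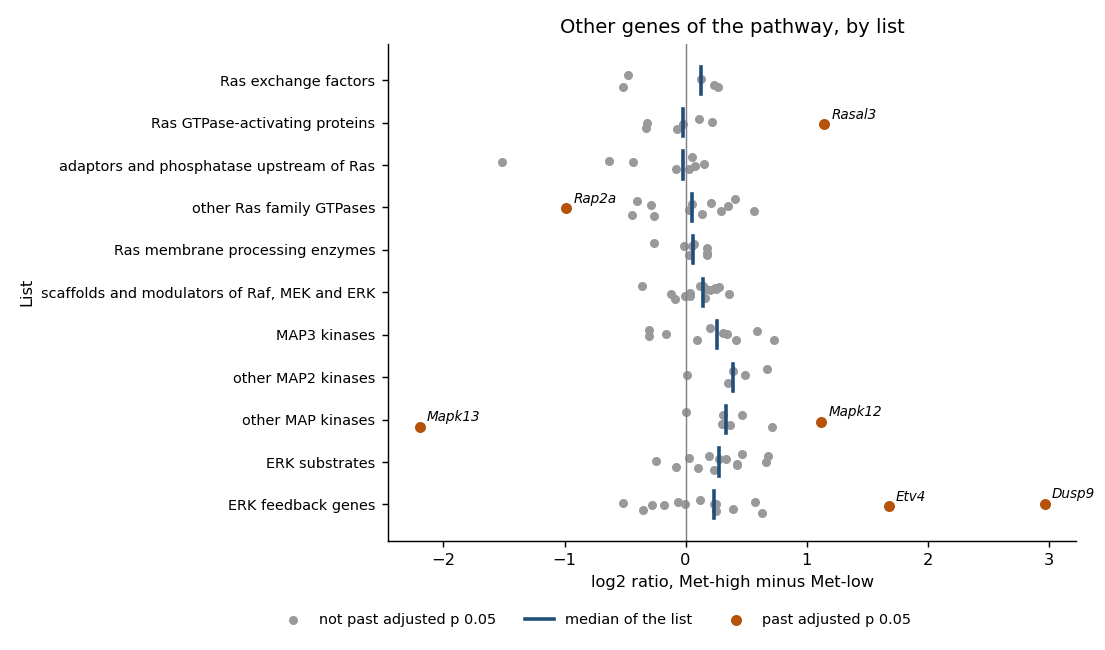
Log2 ratio (Met-high minus Met-low) of the 107 other genes of the pathway that passed the filter, by list, each by its brightest probe, with the median of each list as a bar and the 6 genes past an adjusted p of 0.05 named. The value plotted for *Dusp9* is the calculated ratio of a gene detected on 0 Met-low arrays, for which the text also gives a bound of 1.91-fold.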

How the data were processed

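The authors deposited the scanner output of 4 1-colour arrays (Agilent Feature Extraction, version 11.0.1.1 per the file headers and 10.7.3.1 per the labels), in which each spot has a background-corrected Cy3 intensity, and a table of their processed log2 values, made in GeneSpring by the listed Lowess step, a floor, the 75th percentile per array and the median per gene. Here the deposited intensity was floored at 0.01 and converted to log2, and the 75th percentile over all non-control spots of the array was subtracted. Spots flagged as non-uniform or population outliers, 207 to 232 per array, were left out, and spots of a probe were averaged. Probes were named through RefSeq accessions (27427 of 39429 matched 1 symbol; GRCm38.p6 was used for names and promoters). Probes well above background on both arrays of a population were kept. Met-high was compared with Met-low by limma 3.58.1 in R 4.3.3 (lmFit, eBayes), 2 arrays against 2, without covariates, two-sided, with Benjamini-Hochberg adjustment over all 19796 probes for the members and, each gene by its brightest probe, over all 11958 genes for the lists. Intervals are at 95%. For Dusp9, with no Met-low array well above background, a bound is given beside the calculated ratio. The genes named are all members, the called genes of each list or else the one with the largest ratio, the nearest patterns of the member with the largest ratio, and a few list genes chosen after their values were seen (Nf1, Cnksr3, Ksr1, Mapk14, Mapk11, Dusp1, Spry1, Dusp6 and Etv5). The members and lists were chosen with earlier results of these data known. The number of arrays limits the precision. The fit was tested on simulated data. Promoters and figures were handled with Python 3.11.15, and figures drawn with matplotlib 3.10.9.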

Additional observations from a re-analysis of the deposited data

How the results depend on the processing

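The count of members past the adjusted p was 0 in each of the alternatives, which changed the background (normexp), scaling (quantile, or the percentile of detected probes), filter on dim probes, flagged spots, floor, variance trend, threshold and arrays, or used the authors' values. Without a filter on dim probes, 0 of all probes, 0 genes of the lists and 7 of all genes passed, where 520, 6 and 690 had. By a 2-fold difference with no test, 1578 probes passed. Leaving out one array at a time, the calls lay between 281 and 408 of all probes, between 4 and 6 genes of the lists and between 592 and 868 of all genes, the lowest count of probes being without Met-high replicate 2 and the next, 341, without Met-high replicate 1. The spread of a lone array was taken from the other population. The replicate numbers share only a name in the labels. Samples of the same number deviated together (correlation of 0.53 across 19776 probes). With the replicate number as a block in limma (replicate block), 3265 of all probes and 3556 of all genes passed (1976 higher in Met-high cells, 1580 lower). The members stayed at 0, with adjusted p-values from 0.056 to 0.89. Of the lists, 23 genes passed with the block. Among them were *Rps6ka1* (adjusted p of 0.018), *Map2k5* (0.019), *Gab3* (0.039) and *Sos2* (0.041), while *Map3k14* (0.073), *Ywhaz* (0.12) and *Fnta* (0.14) did not pass. The log2 ratio of *Araf* A_51_P301259 turned to -0.13 with quantile normalization, -0.12 with the percentile of detected probes and, with single arrays left out, lay between -0.11 (without Met-low replicate 2) and 0.16. That of *Map2k1* turned to -0.03 and -0.025 under the 2 changes of scaling, and that of *Ywhaz* to 0.17 without Met-low replicate 1 and 0.38 without Met-high replicate 2, with a lowest value of -1.10 without Met-high replicate 1. The cause of these changes was not tested.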
